A study of Mus musculus with 6 samples.

Results

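Of the 28 core alpha-defensin genes (Defa, the family of small antimicrobial peptides made by Paneth cells, PCs) in the deposited count table, 7 were examined in depth: Defa2, Defa20, Defa23, Defa25, Defa27, Defa31 and Defa37. They were chosen by their own readout, a mean CPM below 10 over all 6 libraries (CPM is the count divided by the library total and scaled to 1000000), so their low level is a description and was not tested. The table holds raw read counts for 55414 genes from wild-type C57BL/6J mice, with PCs sorted by FACS from the small intestine and sequenced as total RNA with single-end reads. Mice received either standard chow (3 libraries) or zinc-depleted chow (3 libraries) for 7 weeks, and every animal was given TNF 3 hours before sampling, so both diets carry TNF and no library without it was analysed here. The series text speaks of 4 replicates a group, of which 3 per diet were analysed here. The labels do not name the animal behind each library, but the study describes its samples as coming from individual mice, so the spread between libraries is read as that between animals.

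The libraries held 6139397 to 12772373 counts, and the core alpha-defensins took 45.5% to 60.5% of them. The sorted cells carried the defining PC transcripts: the 6 PC markers listed (Lyz1, Mmp7, Itln1, Ang4, Defa24 and Mptx2) were all detected and summed to 416017 to 562326 CPM, against 803 to 5629 CPM for 5 goblet cell markers, 472 to 3567 for 4 stem cell markers, 21.6 to 661 for 4 tuft cell markers and 3.63 to 128 for the enterocyte, enteroendocrine and immune lists. A count of 3, used as the detection floor, equals 0.235 to 0.489 CPM depending on the library. Floors and intervals cover counting error only and leave out the spread between libraries. The reads carry no molecular identifiers, so duplicate reads are not accounted for either.

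Alpha-defensins are made as pre-pro-peptides with a signal sequence, an acidic pro-segment and a cationic mature part that is held in shape by disulfide bonds between its cysteines. In mouse PCs the protease Mmp7 cuts the pro-segment away in the granules, and the peptides are released into the crypt lumen, where they act on bacteria. The mouse genes arose by repeated local duplication, so that many copies differ by few bases, and the first exon carries the signal sequence and pro-segment while the second carries most of the mature peptide. A read can be assigned to a gene only where that gene differs from its copies.

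All 7 genes lie on the plus strand of chromosome 8 (GRCm39), and each has 2 exons in its canonical GENCODE M39 transcript. Their coding sequences, taken from the GRCm39 genome, are printed because they show which of these genes differ from their copies and which do not. The first set comprises genes whose coding sequence is present elsewhere without a single difference. Defa2 was identical over its 288 coding bases to Defa33, and Defa20 was identical to Defa32. Defa2 and Defa20 differed from each other by 1 base, G103C (the base of Defa2, its position counted from 1 at the first base of the start codon, and the base of Defa20), which is the base in capitals below. Defa31 and Defa23 had the same 282 coding bases, and so did Defa37 and Defa36, which is why these have no capitals. Defa2 (chr8:21868576-21869418), Defa20 (chr8:21999317-22000159), Defa31 (chr8:21681630-21682470) and Defa37 (chr8:22055430-22056272) read as follows from start to stop codon, without the intron.
Defa2: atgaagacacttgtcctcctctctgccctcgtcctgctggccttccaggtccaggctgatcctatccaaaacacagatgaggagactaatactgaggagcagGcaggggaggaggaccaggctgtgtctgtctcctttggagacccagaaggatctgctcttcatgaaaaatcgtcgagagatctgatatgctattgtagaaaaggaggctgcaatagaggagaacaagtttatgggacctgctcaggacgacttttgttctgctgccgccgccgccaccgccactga
Defa20: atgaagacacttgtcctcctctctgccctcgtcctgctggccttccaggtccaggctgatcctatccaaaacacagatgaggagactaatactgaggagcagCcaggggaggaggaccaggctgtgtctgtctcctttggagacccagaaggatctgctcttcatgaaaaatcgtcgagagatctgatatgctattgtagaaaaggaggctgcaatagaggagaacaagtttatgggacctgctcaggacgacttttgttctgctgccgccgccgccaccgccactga
Defa31 (as Defa23): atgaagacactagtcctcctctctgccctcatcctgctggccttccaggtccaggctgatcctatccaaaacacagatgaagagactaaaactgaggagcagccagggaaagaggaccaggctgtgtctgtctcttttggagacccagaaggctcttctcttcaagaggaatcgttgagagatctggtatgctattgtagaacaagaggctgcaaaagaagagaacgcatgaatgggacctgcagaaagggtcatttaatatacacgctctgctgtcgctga
Defa37 (as Defa36): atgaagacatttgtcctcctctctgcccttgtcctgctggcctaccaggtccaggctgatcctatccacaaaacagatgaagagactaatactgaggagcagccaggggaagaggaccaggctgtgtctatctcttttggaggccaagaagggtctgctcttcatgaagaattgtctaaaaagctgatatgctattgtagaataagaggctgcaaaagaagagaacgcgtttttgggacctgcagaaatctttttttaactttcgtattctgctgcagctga

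Defa25 and Defa27 form the second set, with coding sequences of their own. Among the core genes above the threshold, Defa28 was the closest to both by coding sequence. Defa25 matched Defa28 at 271 bases, with 5 mismatches, 9 bases of Defa28 missing from Defa25 and 3 bases of Defa25 missing from Defa28. In the next sequences, capitals in Defa25 and Defa27 mark bases that differ from Defa28 or are absent from it, and capitals in Defa28 mark bases that differ from Defa25 or are absent from it. Coding parts span chr8:21574458-21575301 for Defa25, chr8:21805638-21806403 for Defa27 and chr8:22073043-22073883 for Defa28.
Defa25: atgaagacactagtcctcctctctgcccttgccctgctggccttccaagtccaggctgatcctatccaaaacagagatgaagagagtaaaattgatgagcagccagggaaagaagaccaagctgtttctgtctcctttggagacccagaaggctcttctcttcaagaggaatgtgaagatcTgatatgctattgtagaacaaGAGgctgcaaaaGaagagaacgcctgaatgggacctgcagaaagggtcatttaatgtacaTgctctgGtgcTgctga
Defa27: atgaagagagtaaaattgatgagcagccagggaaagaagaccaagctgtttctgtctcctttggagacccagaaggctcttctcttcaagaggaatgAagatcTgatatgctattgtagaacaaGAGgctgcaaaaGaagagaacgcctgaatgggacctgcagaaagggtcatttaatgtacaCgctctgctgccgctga
Defa28: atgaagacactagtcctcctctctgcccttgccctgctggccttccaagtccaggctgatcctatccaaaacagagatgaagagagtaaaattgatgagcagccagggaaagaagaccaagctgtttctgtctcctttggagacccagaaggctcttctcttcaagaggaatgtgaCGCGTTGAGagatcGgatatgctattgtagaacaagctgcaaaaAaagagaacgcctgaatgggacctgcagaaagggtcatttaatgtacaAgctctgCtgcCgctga
The annotated coding sequence of Defa27 was 201 bases long, the shortest of the 7. Its transcript still holds the start codon that Defa25 and Defa28 use, at base 1, but the annotated start lies 76 bases further on and in another reading frame. Within the stretch that both genes share, Defa27 lacked a run of 11 bases of Defa28, and reading from the usual start met a stop after 57 codons, against 92 in Defa25 and 94 in Defa28. The annotated reading frame of Defa27 gives 66 codons and leaves out the part that encodes the signal sequence in Defa28. Defa25 and Defa28 each had 7 cysteine codons in frame, whereas the other members had 6.

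To find where reads could be assigned, the canonical transcript of each gene was divided into all windows of 75 bases, within the range of average read length the study states, and each window was looked for in the whole genome and in every annotated transcript on both strands. A window was called specific if it occurred in no other gene or place. None of the 352 windows of Defa2 was specific, nor any of the 351 of Defa20, the 471 of Defa23, the 303 of Defa31 or the 329 of Defa37. These 5 genes also had no specific window at 50, 100 or 150 bases. Defa25 had 83 specific windows of 205 (40.5%), and Defa27 had 191 of 297 (64.3%). In Defa25, 66 of the specific windows spanned the exon junction and 17 lay in the second exon. In Defa27, 45 lay in the first exon, 71 spanned the junction and 75 lay in the second exon.

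**Figure D1:**
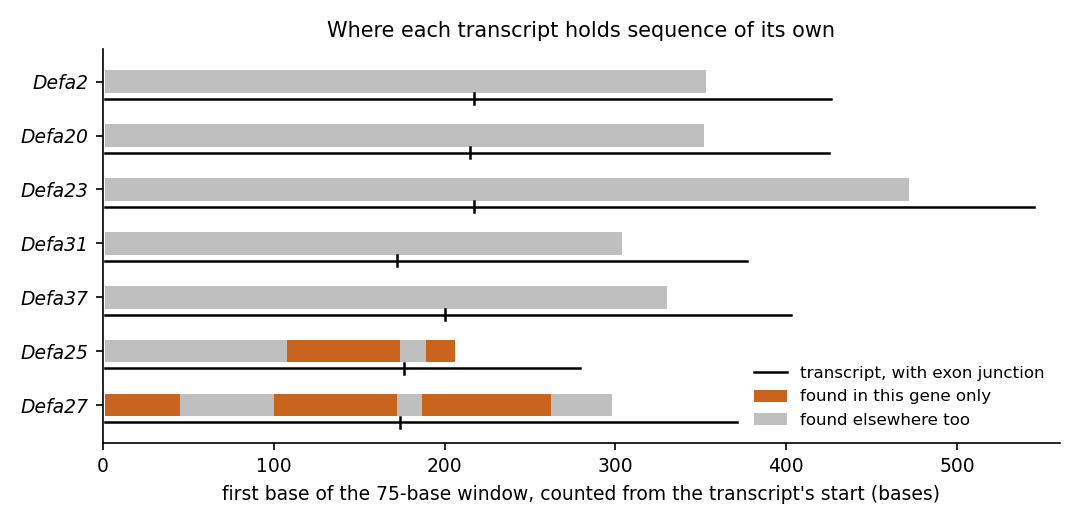
Each row is the canonical transcript of 1 gene (black line, with a tick at the exon junction), and the bar above it gives, by the first base of each 75-base window (x axis, bases from the transcript's start), whether the window occurs in that gene only (orange) or elsewhere too (grey). The bars of Defa2, Defa20, Defa23, Defa31 and Defa37 are grey throughout, while Defa25 has 83 and Defa27 has 191 specific windows.

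The shared windows fell into groups. Defa2 shared 277 of its 352 windows with Defa20 and as many with Defa33, and 200 with Defa32. Defa20 in turn shared 276 of 351 with Defa2 and with Defa32. All 303 windows of Defa31 were found in Defa23, and 349 of the 471 windows of Defa23 in Defa31. The remaining 122 windows of Defa23 occurred in no other gene's transcript, but each was found at another place in the genome within the span of the Defa41 gene, which gives Defa23 25.9% specific windows if transcripts alone are searched. All 329 windows of Defa37 were found in Defa36, and 111 of them also in Defa35. Defa25 shared 107 windows with the pseudogene Defa-ps18 and 102 with Defa28, and Defa27 shared 91 with each of these.

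**Figure D2:**
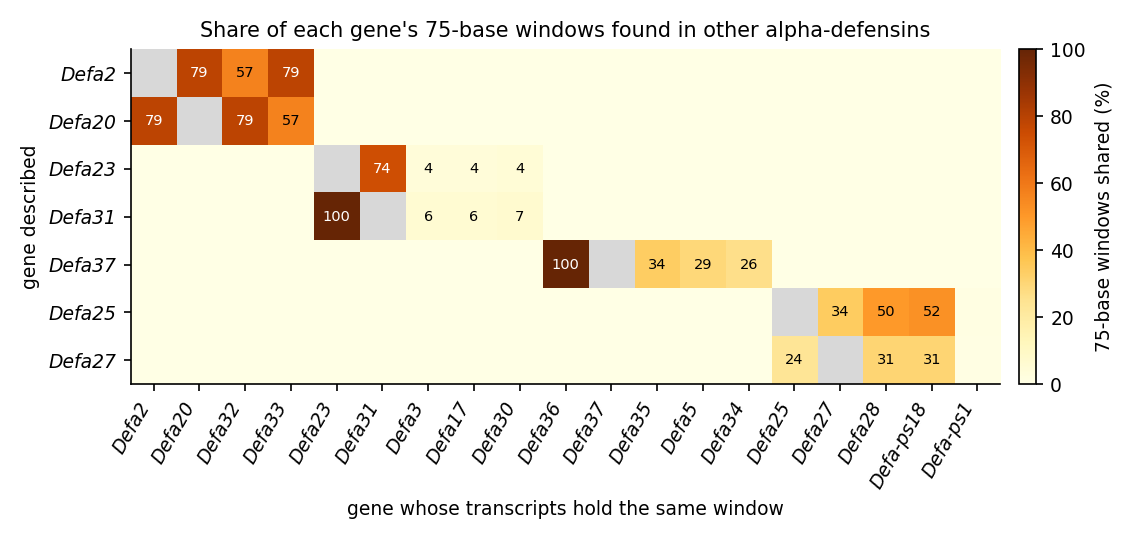
Percent of the 75-base windows of each of the 7 genes (rows) that also occur in a transcript of another alpha-defensin or alpha-defensin pseudogene (columns), with values of at least 1% printed and the gene itself in grey. Sharing is complete from Defa31 to Defa23 and from Defa37 to Defa36, and does not exceed 52.2% for Defa25 or 30.6% for Defa27. Defa41 is not among the columns, although 10 of the 329 windows of Defa37 (3.04%) occur in it.

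Close copies were both near and far along the chromosome. Defa2 and Defa33 have start codons 13296 bases apart, and Defa20 and Defa32 19774. The start codons of Defa23 and Defa31 lie 136533 bases apart, those of Defa36 and Defa37 137958 and those of Defa42 and Defa43 137948. For Defa33 and Defa32 the distance is 137219 and for Defa2 and Defa20 130741, and each of these pairs differs by 1 coding base. Identity ran beyond the coding sequence: Defa2 and Defa33 were the same for 854 genomic bases from the start codon and 383 before it, and Defa36 and Defa37 for 307 bases from it and 1045 before it. Over the whole gene body, introns included, none of 911 windows of Defa2 and none of 910 of Defa20 occurred once in the genome. Defa31 had 121 such windows of 908 and Defa37 had 75 of 1036, all within the intron. Defa23 had 227 of 2466, of which 9 touched an exon. In Defa25 it was 426 of 770 and in Defa27 605 of 890.

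The 7 genes together received 405 counts, which is 0.00143% of the 28231751 counts of the core family. Of their 42 values (7 genes in 6 libraries), 14 were 0 and 23 were 3 counts or fewer.

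Defa27 took 63.95% of these counts. Its counts in standard-diet replicates 1, 2 and 3 were 25, 31 and 46, and 46, 32 and 79 in the zinc-depleted replicates. Every library was above the floor, at 3.41 to 6.19 CPM, and the diets overlapped. Its 259 counts over the series correspond to 4.83 CPM, with an exact 95% Poisson interval of 4.26 to 5.45.

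Defa31 had 9, 10 and 9 counts on standard diet and 12, 14 and 23 on zinc-depleted diet. Scaled to library size the diets overlapped, at 0.902 to 1.63 and 1.201 to 1.88 CPM. All 6 libraries were above the floor although no 75-base window of its transcript is specific, and 32 of its 423 exon bases (7.57%) overlap an exon of Defa41 on the same strand. Which part of the gene these reads came from cannot be seen in a table of counts per gene.

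Defa25 was uneven. Its counts were 10, 0 and 5 on standard diet and 14, 1 and 6 on zinc-depleted diet, so that the libraries numbered 1 were highest (1.36 and 1.40 CPM), those numbered 2 lowest (0 and 0.135 CPM) and those numbered 3 between them (0.501 and 0.470 CPM) in both diets. Its 36 counts correspond to 0.671 CPM (95% Poisson interval 0.470 to 0.929). Its annotated transcript is 279 bases long and consists of coding sequence alone, so reads from untranslated parts are not counted for this gene.

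The remaining 4 genes stayed at or near the floor. Defa37 had 1, 2 and 5 counts on standard diet and 3, 0 and 4 on zinc-depleted diet. Defa20 had 7, 3 and 2 counts in the zinc-depleted replicates and none on standard diet. Defa2 had 1 count in standard-diet replicate 3, 3 counts in zinc-depleted replicate 2 and none elsewhere. Defa23 had 2 counts in zinc-depleted replicate 1 and none elsewhere. Defa2 and Defa23 exceeded the floor in no library and Defa20 in 1. Over all libraries together, the 12 counts of Defa20 correspond to 0.224 CPM (95% Poisson interval 0.116 to 0.391), the 4 of Defa2 to 0.0746 CPM (0.0203 to 0.191) and the 2 of Defa23 to 0.0373 CPM (0.00451 to 0.135).

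**Figure D3:**
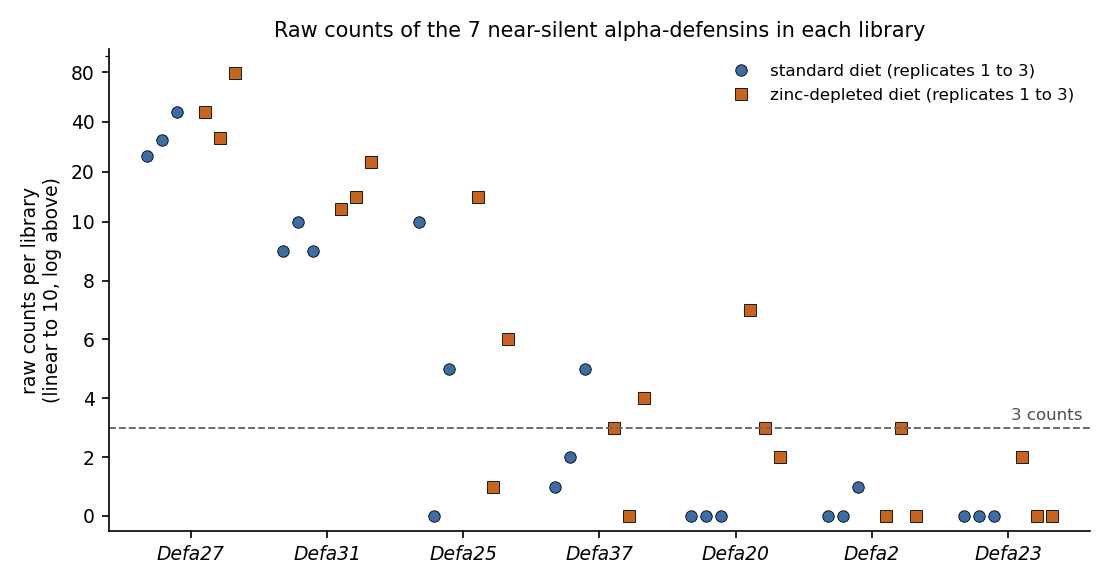
Raw counts (y axis, linear up to 10 and logarithmic above) of each of the 7 genes in the 3 standard-diet libraries (blue circles) and the 3 zinc-depleted libraries (orange squares), replicates 1 to 3 from left to right. Defa27 and Defa31 lie above the dashed line of 3 counts in all 6 libraries, while Defa2 and Defa23 do not exceed it in any.

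Sums over copies were also low. Reads left out for having several matches would be missing from every copy, so these sums cannot show how strongly a group is expressed. Defa2, Defa20, Defa32 and Defa33 together had 28 counts in 6 libraries, Defa36 and Defa37 had 18, and Defa23 and Defa31 had 79. Defa42 and Defa43, a pair of copies whose canonical transcripts also lack specific windows, had 375. Over all their annotated exons, however, each had 18 windows that occurred once in the genome, and 113 such windows touched an exon. Defa2, Defa20, Defa31 and Defa37 had none of either kind.

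The threshold of 10 CPM fell in a gap. Defa27, the member closest to it, had a mean of 4.69 CPM and the next core gene above, Defa28, 28.2 CPM. Defa31 followed at 1.44, Defa25 at 0.645, Defa37 at 0.263, Defa20 at 0.210, Defa2 at 0.0840 and Defa23 at 0.0334 CPM. Another 5 core genes met the same threshold but were not among the 7: Defa42 (4.16 CPM), Defa43 (2.76), Defa33 (0.141), Defa32 (0.0803) and Defa36 (0.0663). The order from Defa37 downward rests on 15 counts or fewer per gene, and the Poisson intervals of neighbouring members in it overlap.

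Set against sequence, the 12 genes under 10 CPM fell into a larger and a smaller set. All 10 core genes with no specific window in their canonical transcript lay under 10 CPM, and 5 of these are members. Of the 18 core genes with specific windows, 16 were at or above 10 CPM, down to a share as low as 2.32% specific windows, and Defa25 and Defa27 were the 2 below it. This split held for exact matches of 75 bases. With windows of 50 bases, 11 core genes had no specific window and 1 of them, Defa5, was above 10 CPM, and with 1 mismatch counted as a match there were 15, of which Defa3, Defa5, Defa17, Defa21 and Defa22 were above it. No test was made since the level chose the members.

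**Figure D4:**
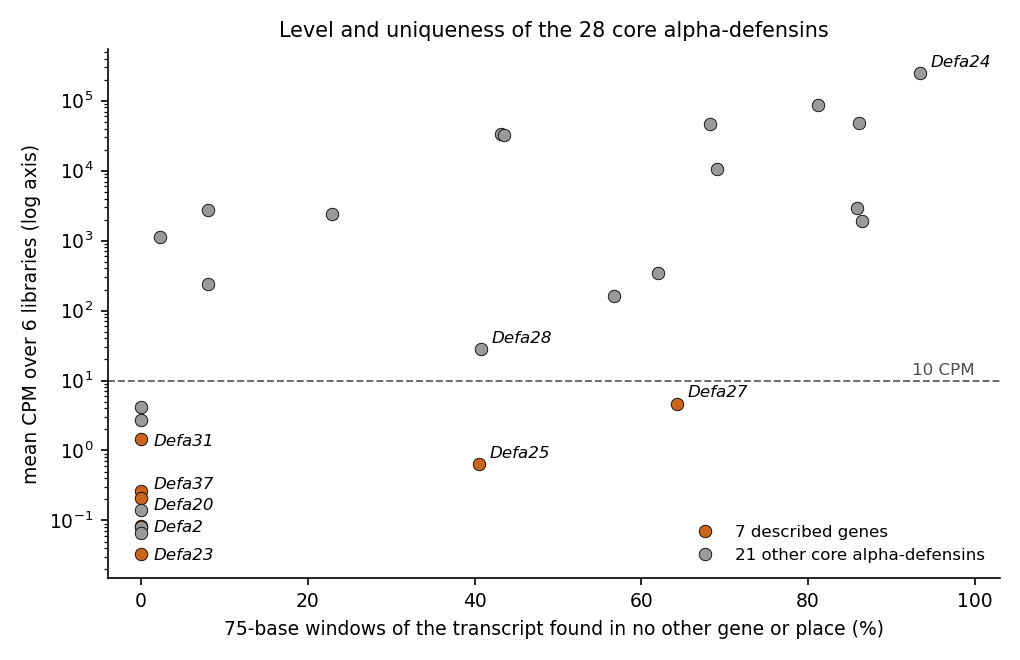
Mean CPM over the 6 libraries (y axis, log) against the percent of 75-base windows of the canonical transcript found in no other gene or place (x axis) for the 28 core alpha-defensins, with the 7 described genes in orange and 10 CPM dashed. The 10 genes at 0% all lie under 10 CPM, and Defa25 and Defa27 lie under it with 40.5% and 64.3% specific windows.

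Genes outside the family were compared in the same way, with windows looked for in annotated transcripts alone, a measure by which 8 core genes had no specific window and none of these reached 10 CPM. Of 363 other protein-coding genes whose canonical transcript had no specific window, 345 had no count in any library and 2 reached 10 CPM. Of 1661 with some but under 50% specific windows, 945 had no count and 195 (11.7%) reached 10 CPM. Of 19574 with at least 50% specific windows, 6370 had no count and 3837 (19.6%) reached 10 CPM. How the counting treated reads with several matches is not given in the sources used here. For Defa2, Defa20, Defa23, Defa31 and Defa37 the counts therefore cannot tell a silent gene from one whose reads went uncounted or to a copy. In a typical experiment of the study, quantified with the program Salmon, Defa2, Defa20 and Defa23 were among the most abundant alpha-defensins. It found no reads for Defa31 and Defa37 but high levels of their copies Defa23 and Defa36, and Defa27 and Defa25 were the lowest detected. Whether that experiment used these libraries is not stated, and its levels were not tested against them. The study also gives medians over all its samples, drawn from listed series that include this one. There, possible transcripts joined from different Defa genes were added to the transcripts searched. With them the medians of Defa20 and Defa27 fell strongly, while those of Defa2 and Defa23 stayed among the highest.

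Defa25 and Defa27 have sequence to which reads could be assigned, and their counts were nevertheless low. Per kilobase of transcript the levels were 12.7 CPM for Defa27, 2.31 for Defa25, 69.9 for Defa28 and 584713 for Defa24, the most abundant alpha-defensin. How many of their reads were lost through the shared windows was not tested, and the specific share falls to 25.9% for Defa25 and 30.3% for Defa27 if a copy with 1 mismatch counts as a match.

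Whether diet changed these genes was asked in the edgeR quasi-likelihood test over all genes that passed the filter on low counts. Of 9749 genes tested, 0 were called at an adjusted p under 0.05 (0% called), with 645 under 0.05 before adjustment. Only Defa27 and Defa31 passed the filter, and neither was called. For edgeR, SE was derived from the test, as the absolute log2 fold change divided by the square root of the F statistic. The log2 fold change of Defa27 (zinc-depleted against standard) was 1.15 (SE 0.58, adjusted p = 0.681) and that of Defa31 was 1.41 (SE 0.70, adjusted p = 0.681). These values depend on the scaling. TMM factors ran from 0.459 to 1.73, and with total counts alone the log2 fold changes were 0.21 for Defa27 and 0.38 for Defa31, while the median over all tested genes moved from 0.00 to -0.67. Among the 20 core alpha-defensins tested, 19 had a positive log2 fold change with TMM (median 1.16) and 15 with total counts (median 0.22), and Defa27 and Defa31 lay between the lowest and the highest of the family under both. Summed levels of 4 stem cell markers (Lgr5, Olfm4, Ascl2 and Smoc2) were 1172 to 3567 CPM on standard diet and 472 to 565 CPM on zinc-depleted diet, and their part in the contrast was not tested. In bulk samples fewer cells of a type and less RNA per cell cannot be told apart.

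**Figure D5:**
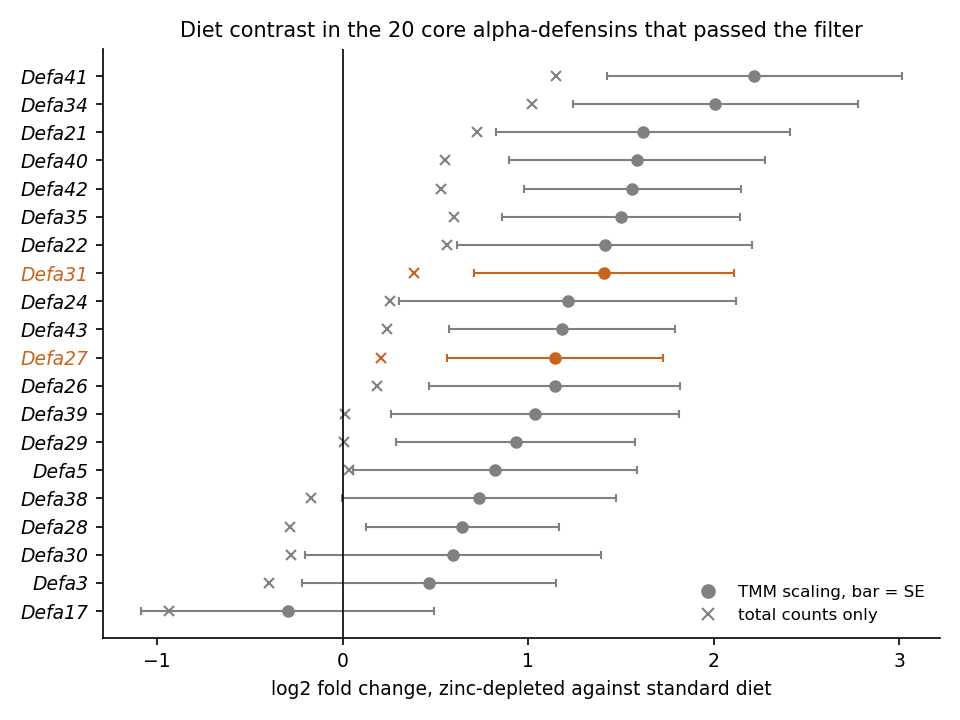
Log2 fold change between zinc-depleted and standard diet (x axis) for the 20 core alpha-defensins that passed the filter, with TMM scaling (circles, bars are SE) and with total counts only (crosses), Defa27 and Defa31 in orange. No gene was called, and every cross lies to the left of its circle.

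The other 5 genes were fitted only when the filter was dropped, where 76 of 17790 genes were called (0.427%) and none of the 7. Defa20 was the member whose CPM did not overlap between the diets, at 0 in every standard-diet library and 0.157 to 0.701 CPM in the zinc-depleted ones. Of the 13718 genes with a count and a mean under 10 CPM, 9.25% had diets that did not overlap. Without the filter Defa20 had an adjusted p of 0.42 in edgeR. With all 3 standard-diet libraries at 0 and 12 counts in the others no fold change is given. For Defa25 the log2 fold change was 0.69 (SE 1.13, adjusted p = 0.83) and for Defa37 0.05 (SE 1.48, adjusted p = 0.994), in edgeR without the filter. Defa2 and Defa23, with 4 and 2 counts, are given by their counts alone.

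Defa27 was the 1 member with 100 counts or more, which allowed its pattern over the libraries to be set beside that of other genes. The 3 genes with the most similar log2 CPM over the 6 libraries were Ndufaf4 (an assembly factor of mitochondrial complex I, Pearson r = 0.9995), Cyp20a1 (a cytochrome P450, r = 0.997) and Gabarap (an autophagy-related ubiquitin-like protein, r = 0.995). With 6 points that share library depth and scaling, 668 of 9748 genes had an r above 0.9, and these values are a description.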

How the data were processed

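The deposited table holds raw read counts per gene that the authors made from trimmed single-end reads. Per the labels' processing notes, FastQC, Trimmomatic 0.39 and STAR 2.7.10a were used with build mm39, and the study's methods name the GENCODE M30 annotation. Which program counted the reads, whether by strand, and how reads with several matches were handled is not given in the sources used here. Ensembl identifiers were matched to GENCODE M39 symbols (54749 of 55414 matched, and the rest held at most 0.00479% of the counts of a library). All 6 columns were used. CPM was the count divided by the library total (6139397 to 12772373). Diets were compared with edgeR 4.0.16 (TMM, filterByExpr, quasi-likelihood F test, two-sided, Benjamini-Hochberg, threshold 0.05), which was tested on simulated data, and with DESeq2 1.42.0 and limma 3.58.1 as alternatives. Windows of 75 bases were matched exactly to GRCm39 and to GENCODE M39 transcripts on both strands, and those with 1 mismatch within the alpha-defensin locus only. M39 is a later release than M30, and models that differ between them could change a gene's windows. The members and lists were chosen with earlier results of these data known. Named genes were the 7 members, the other core genes under 10 CPM and the next above, the genes sharing most windows or overlapping exons with a member, Defa24, and the 3 genes most like a member with at least 100 counts.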

Additional observations from a re-analysis of the deposited data

How the results depend on the processing

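The number of genes called between diets was 0 under TMM, RLE, total counts, scaling without the core alpha-defensins, limma-voom and the replicate block, 10 with DESeq2 and 76 without the filter on low counts, and 0 to 28 when 1 library was left out (28 without standard-diet replicate 3). None of the 7 genes was called under any of these, but with the filter kept only 2 or 3 of them were tested. With the filter dropped and a library left out, a combination chosen after seeing the data, the number of members called was 0 to 1, the exception being Defa27 without zinc-depleted replicate 1 (log2 fold change 1.48, adjusted p = 0.0293 in edgeR). In that fit 617 of 17227 genes were called as higher on zinc-depleted diet, so the call was not particular to Defa27. The log2 fold change of Defa27 spanned 0.21 to 1.58 over 13 alternatives and that of Defa31 0.38 to 1.89, with adjusted p from 0.129 to 1.000 and from 0.125 to 1.000. Fitted without the filter, likewise chosen after seeing the data, that of Defa25 spanned 0.10 to 1.39 over 9 alternatives, and that of Defa37 turned to -0.58 with total counts, to -7.8e-04 with the replicate block, and ranged from -0.93 to 1.00 when 1 library was left out (-0.40, -0.10 and -0.93 without standard-diet replicates 1 and 2 and zinc-depleted replicate 3). Libraries with the same replicate number had correlations of their deviations from the diet means of 0.147, -0.0584 and 0.248. Those with different numbers ranged from -0.278 to 0.250, so the numbers were not taken to pair the libraries. The replicate block in edgeR left Defa27 at 1.03 (adjusted p = 0.485) and Defa31 at 1.22 (adjusted p = 0.592). The number of core genes under 10 CPM was 12 under each alternative, and with TMM scaling the mean of Defa27 was 5.64 CPM. The mean of Defa23 fell to 0 and that of Defa20 from 0.210 to 0.112 CPM without zinc-depleted replicate 1, and that of Defa2 to 0.02005 without zinc-depleted replicate 2. Specific windows made up 25.2%, 54.4% and 75.4% of Defa25 and 43.8%, 84.9% and 100% of Defa27 at 50, 100 and 150 bases. The 5 members with 36 counts or fewer rest on the fewest counts. Among them, Defa2, Defa20, Defa23 and Defa37 had no specific window at any of these lengths.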
